A study of Mus musculus with 16 samples.

Results

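The genes described here encode the constitutive proteasome, its regulatory particles, its activators and inhibitor, and the chaperones that assemble it. They were chosen by symbol, as the Psma to Psmg genes with a number (including Psme3ip1), without the immunoproteasome genes Psmb8, Psmb9 and Psmb10, and with 10 or more counts in 4 or more libraries. Of 46 genes with such symbols, 44 met the count rule and Psma8 and Psmb11 did not. All 44 were among the 16306 genes tested, of 56941 gene rows in the count table. The rule used symbols and the size of the counts, and no comparison of conditions.

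The RNA was from primary murine gingival fibroblasts (mGF), grown from explants of the gingiva of wild-type C57Bl6 mice aged 3 to 6 months and used between passages 2 and 8. Cells received BSA (control), the albumin vehicle that carries the fatty acid, IL-1β at 1 ng/mL, palmitate bound to BSA at 200 µM, or palmitate + IL-1β, for 24 h. Each condition had 4 libraries, numbered 1 to 4 for BSA, 5 to 8 for IL-1β, 9 to 12 for palmitate and 13 to 16 for palmitate + IL-1β. The labels do not say whether the libraries were separate cultures or animals, so p-values measure the spread between these libraries, which may be technical.

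The proteasome degrades proteins that carry ubiquitin. Its 20S core is a barrel of stacked rings, in which the alpha rings gate the entrance and the beta rings hold the proteolytic sites. The 19S regulatory particle caps the barrel, and consists of a base with an ATPase ring that unfolds substrates and a lid that removes ubiquitin. Other caps, the PA28 and PA200 activators, open the core without ATP, and inflammatory cytokines are known to replace the catalytic beta subunits by the immunoproteasome forms. When proteasome activity falls short, the factor Nrf1 (Nfe2l1) is known to raise transcription of the subunit genes together.

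Libraries held 21234789 to 92752515 counts in genes, and palmitate library 10 was the deepest. Levels are given as CPM, counts relative to the TMM-scaled total of the tested genes, and differences as log2 fold changes of an edgeR quasi-likelihood fit over all 16 libraries, with the standard error (SE) of the fit. A gene was called higher or lower at a Benjamini-Hochberg adjusted p under 0.05 over all 16306 genes. All 9 fibroblast markers (such as Col1a1, Col3a1 and Pdgfra) were tested. They differed widely in level, from a BSA mean of 1.82 CPM for Lum to 14193.5 CPM for Col1a1. Their summed level was 31596 to 33496 CPM in BSA, 33188 to 33713 in IL-1β, 29239 to 31318 in palmitate and 28473 to 30460 in palmitate + IL-1β. The sum hides markers that moved apart. From BSA to palmitate, mean Pdgfra rose from 213 to 310 CPM, while Vim fell from 5659 to 4555 CPM and Col1a2 from 6943 to 6173 CPM. Mean Col3a1 was 4954 CPM in BSA and 4953 CPM in palmitate. The 4 epithelial markers together stayed between 0.164 and 0.728 CPM over all libraries, the 5 leukocyte markers between 1.29 and 2.83 CPM and the 2 endothelial markers between 0.414 and 1.40 CPM. Fewer cells of a type and less RNA per cell cannot be told apart in bulk RNA.

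Proteasome transcripts were higher in palmitate. There 28 of the 44 genes were called higher than in BSA and 0 lower, beside 19.8% and 17.5% of all genes tested. The summed level of the 44 genes was 2519 to 2658 CPM in BSA, 2583 to 2696 CPM in IL-1β, 3044 to 3163 CPM in palmitate and 3119 to 3181 CPM in palmitate + IL-1β. Both conditions with palmitate lay above both without it, with no overlap. As a share of all gene counts, which involves no TMM scaling, the 44 genes took 0.262% to 0.271% in BSA, 0.256% to 0.272% in IL-1β, 0.298% to 0.314% in palmitate and 0.309% to 0.313% in palmitate + IL-1β.

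**Figure D1:**
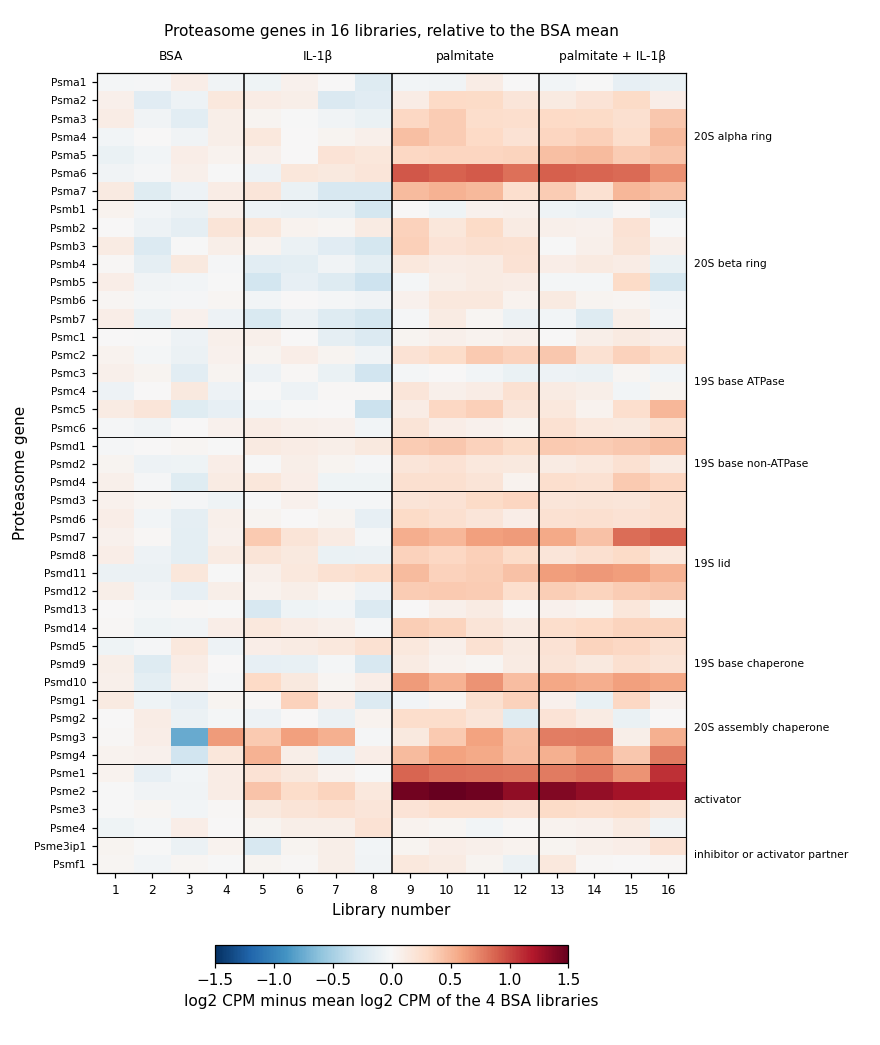
Each row is a proteasome gene and each column a library, and the colour gives log2 CPM minus the mean log2 CPM of the 4 BSA libraries. Psma6, Psme1 and Psme2 stand out in libraries 9 to 16, most other rows are slightly raised there, and the IL-1β columns stay near the BSA level.

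In palmitate against BSA, 28 of the 44 genes (63.6%) were called higher and 0 lower, where 19.8% of all genes tested were called higher and 17.5% lower. With upper-quartile scaling, 20 were called higher and 0 lower, beside 14.7% higher and 24.9% lower of all genes. The median log2 fold change of the 44 genes was 0.22 and that of all genes tested -0.003. Most changes were small: the called genes ranged from 0.11 to 1.43 on the log2 scale with a median of 0.30, 6 exceeded 0.5, and only Psme2 exceeded a 2-fold change.

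In the 20S core, palmitate raised 6 of the 7 genes of the alpha ring, which forms the gated entrance, with a median log2 fold change of 0.32, and 4 of the 7 of the beta ring, which holds the proteolytic sites, with a median of 0.11. Of all genes tested, 19.8% were called higher and 17.5% lower. The difference between the rings was not tested. The alpha ring sum was 424 to 452 CPM in BSA and 561 to 600.0 CPM in palmitate, and the beta ring sum 272 to 298 CPM in BSA and 307 to 314 CPM in palmitate, so neither ring overlapped between these conditions. Besides Psma6, the alpha genes called higher were Psma7 (0.44), Psma4 (0.34), Psma5 (0.32), Psma3 (0.30) and Psma2 (0.22), and Psma1, at 0.01, was not called. Of the structural beta genes, Psmb3 (0.25), Psmb2 (0.22) and Psmb4 (0.15) were called higher, and Psmb1, at 0.01, was not. Near-identical sequence in other annotated transcripts covers 96.5% of Psmb3 and 67.6% of Psma5, and reads that fit several places were not counted.

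Psma6, an alpha ring subunit, had the largest change of the core. It measured 86.3, 88.7, 94.3 and 89.2 CPM in BSA libraries 1 to 4, 85.2, 101, 99.2 and 102 CPM in IL-1β, 171, 165, 169 and 159 CPM in palmitate, and 167, 164, 161 and 144 CPM in palmitate + IL-1β. Every library with palmitate was above every library without it, while BSA and IL-1β overlapped. The log2 fold change against BSA was 0.89 in palmitate (SE 0.05, edgeR adjusted p = 2.59e-15) and 0.83 in palmitate + IL-1β (SE 0.05, adjusted p = 1.09e-14). IL-1β alone gave 0.11 (adjusted p = 0.163), and without library 5 it was called, at 0.17 (adjusted p = 0.0204). Per kilobase, Psma6 was the highest of the alpha ring in BSA by both lengths tried, at 40.3 CPM per kb of all annotated exons and 86.0 CPM per kb of the canonical transcript. The canonical length was chosen after the data were seen.

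Psma6 lies on chr12:55431007-55467094 (GRCm39, plus strand), with Prorp, a mitochondrial RNase P subunit, and Nfkbia, the NF-κB inhibitor IκBα, as its coding neighbours. The neighbours were chosen after their values were seen. Nfkbia was called higher in palmitate (log2 fold change 2.16), in IL-1β (1.48) and in palmitate + IL-1β (2.39), while Prorp was called in none of the 3. In IL-1β, Nfkbia was thus called and Psma6 was not.

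The 3 beta subunits that carry the proteolytic sites moved little with palmitate. Psmb5, the chymotrypsin-like subunit, measured 13.7, 12.4, 12.5 and 12.8 CPM in BSA, 10.6, 11.8, 11.3 and 10.4 CPM in IL-1β, 12.6, 13.6, 14 and 13.9 CPM in palmitate and 12.6, 12.6, 15.7 and 10.7 CPM in palmitate + IL-1β. The IL-1β libraries were all below the BSA libraries, and those with palmitate overlapped with BSA. The log2 fold change was 0.07 in palmitate (95% confidence interval -0.09 to 0.24, adjusted p = 0.524) and -0.23 in IL-1β (SE 0.09, adjusted p = 0.0752). Palmitate + IL-1β was called higher than IL-1β alone (0.23, adjusted p = 0.0353), a call lost without any 1 of libraries 5, 7, 8, 13, 14 and 15, with upper-quartile scaling, with no expression filter and with only the libraries compared. With upper-quartile scaling, the lower level in IL-1β was called (-0.27, adjusted p = 0.0288). Near-identical sequence in other annotated transcripts covers 67.6% of the Psmb5 transcript.

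Psmb6, the caspase-like subunit, measured 61.6, 59.3, 59.8 and 61.6 CPM in BSA, 58.7, 60.8, 59.8 and 58.2 CPM in IL-1β, 63.4, 67.8, 67.5 and 63 CPM in palmitate and 66.3, 62.3, 61.8 and 58.8 CPM in palmitate + IL-1β. The palmitate libraries lay just above the BSA libraries, and the other conditions overlapped with BSA. It was called higher in palmitate by 0.11 (SE 0.04, edgeR adjusted p = 0.0394), a call lost with upper-quartile scaling (0.05, adjusted p = 0.446), with no expression filter, and without any 1 of libraries 1, 2, 3, 10 and 11.

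Psmb7, the trypsin-like subunit, measured 34.3, 30, 33.6 and 30.5 CPM in BSA, 27.3, 30.1, 28 and 26.7 CPM in IL-1β, 31.7, 35, 32.7 and 30.2 CPM in palmitate and 31.2, 28.1, 33.9 and 31.6 CPM in palmitate + IL-1β. It was the member called lower in IL-1β (log2 fold change -0.20, SE 0.06, adjusted p = 0.0296), although library 6 reached into the BSA range. That call was lost without any 1 of libraries 1, 3, 5, 7 and 8. In palmitate the change was 0.02 (95% confidence interval -0.10 to 0.15, adjusted p = 0.821).

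The immunoproteasome forms of the same 3 subunits are Psmb8, Psmb9 and Psmb10. They were called higher in palmitate, with log2 fold changes of 4.46, 2.74 and 2.25 from BSA means of 0.413, 0.214 and 3.76 CPM. Among all genes tested, 19.8% were called higher there. In IL-1β, 2 of the 3 were called higher (median log2 fold change 0.76), beside 10.1%. In the interaction, the palmitate effect with IL-1β minus that without, 2 of the 3 were called lower (median -0.76), beside 1.83%. In BSA, Psmb8 had only 18, 2, 13 and 16 counts and Psmb9 10, 4, 4 and 8, so the size of their changes is uncertain. Psmb10 had 124, 109, 117 and 97 counts in BSA.

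**Figure D2:**
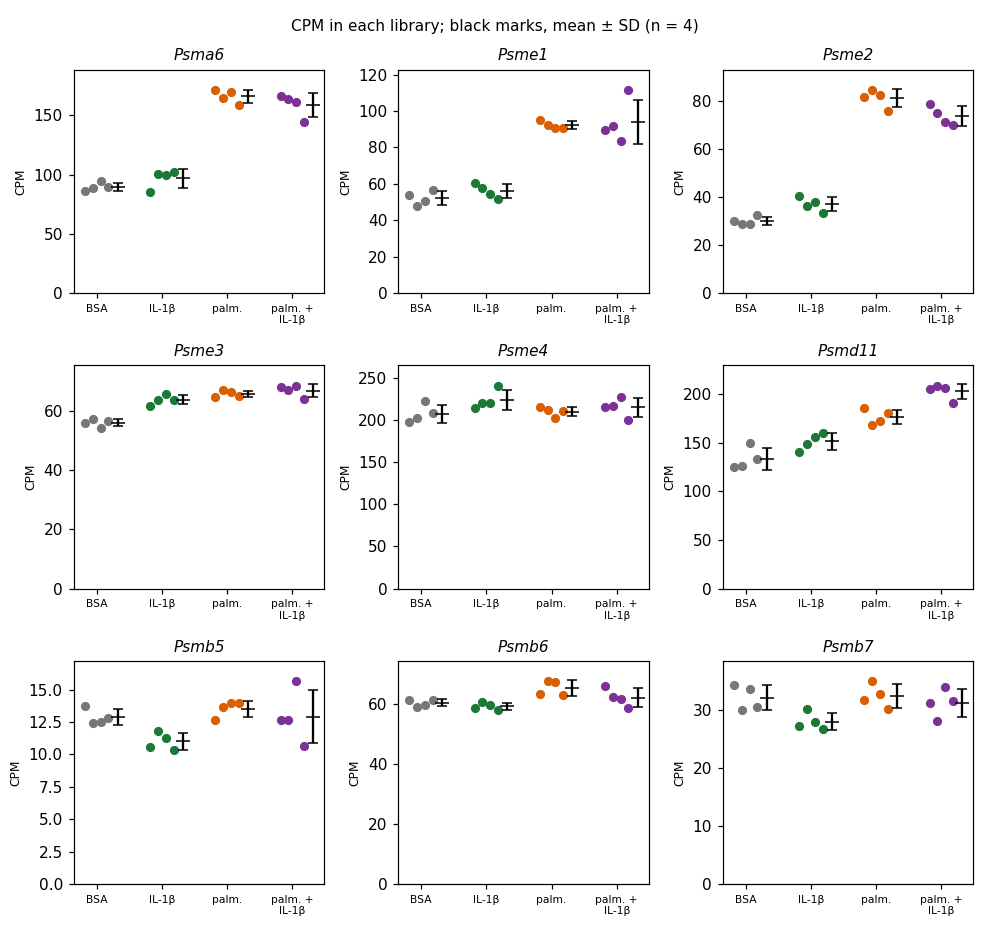
CPM of 9 proteasome genes in every library by condition, with the mean and SD of 4 libraries as black marks and each axis starting at 0. Psma6, Psme1 and Psme2 separate by palmitate, Psmd11 is highest in palmitate + IL-1β, and Psme4 and the catalytic Psmb5, Psmb6 and Psmb7 stay close to the BSA level.

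The 4 activators ranged in log2 fold change with palmitate from 0.02 to 1.43, and 3 were called higher, beside 19.8% of all genes tested. Psme1 and Psme2 encode the alpha and beta subunits of PA28, a ring known to be induced by interferon gamma that assists in making peptides for antigen presentation. Psme1 measured 54, 48, 50.5 and 56.5 CPM in BSA, 60.6, 57.6, 54.3 and 51.8 CPM in IL-1β, 95.2, 92, 90.7 and 90.5 CPM in palmitate and 89.3, 91.6, 83.5 and 112 CPM in palmitate + IL-1β. All libraries with palmitate were above all without it, and library 16 was the highest. Its log2 fold change against BSA was 0.82 in palmitate (SE 0.07, edgeR adjusted p = 7.09e-09), 0.84 in palmitate + IL-1β (SE 0.07, adjusted p = 2.78e-09) and 0.10 in IL-1β (adjusted p = 0.409).

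Psme2 measured 29.9, 28.9, 28.8 and 32.5 CPM in BSA, 40.5, 36.2, 37.7 and 33.4 CPM in IL-1β, 81.5, 84.5, 82.5 and 75.6 CPM in palmitate and 78.7, 75, 71.2 and 69.8 CPM in palmitate + IL-1β. IL-1β libraries lay above BSA, and palmitate far above both. Its log2 fold change against BSA was 1.43 in palmitate (SE 0.06, edgeR adjusted p = 9.3e-20), 0.30 in IL-1β (SE 0.06, adjusted p = 0.000334) and 1.30 in palmitate + IL-1β (SE 0.06, adjusted p = 9.16e-19). The interaction, the palmitate effect with IL-1β minus that without, was -0.44 (SE 0.08, adjusted p = 0.000561). Psme2 was the only one of the 44 genes (2.27%) with a called interaction, near the 1.83% of all genes tested called lower.

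Psme1 and Psme2 lie close together on chromosome 14, at chr14:55815190-55822034 on the plus strand and chr14:55824895-55829173 on the minus strand (GRCm39). Of the Psme2 transcript, 82.4% is near-identical to Psme2b, an annotated copy of it with 14 to 191 counts per library whose log2 fold change in palmitate was 1.23. Rnf31 overlaps Psme2 exons on the opposite strand, and its level was not examined here. Irf9, an interferon-response transcription factor, is the nearest coding gene without overlap on the side of Psme2 away from Psme1. Irf9 was called higher in palmitate (1.00) and in palmitate + IL-1β (1.13) but not in IL-1β (0.11). Emc9, the coding neighbour of Psme2 on the side of Psme1, overlaps Psme1 exons on the opposite strand. Emc9 was not called in palmitate (-0.33) and was called lower in palmitate + IL-1β (-0.70, edgeR adjusted p = 0.000888). Irf9 and Emc9 were chosen after their values were seen.

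Psme3 encodes PA28 gamma, a nuclear activator. It measured 56.1, 57.3, 54.4 and 56.6 CPM in BSA, 61.9, 64, 65.7 and 63.8 CPM in IL-1β, 64.7, 67, 66.6 and 65.3 CPM in palmitate and 68.2, 67.1, 68.7 and 64 CPM in palmitate + IL-1β. The 3 treated conditions overlapped with each other and all lay above BSA. Its log2 fold change against BSA was 0.23 in palmitate (SE 0.04, edgeR adjusted p = 2.57e-05), 0.19 in IL-1β (SE 0.04, adjusted p = 0.00158) and 0.26 in palmitate + IL-1β (SE 0.04, adjusted p = 4.44e-06).

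Psme4, the PA200 activator, and the 2 genes that restrain or accompany the activators were called in none of the comparisons. Psme4 measured 198, 203, 223 and 208 CPM in BSA, 215, 221, 221 and 241 CPM in IL-1β, 216, 213, 203 and 211 CPM in palmitate and 216, 218, 228 and 201 CPM in palmitate + IL-1β. Psmf1, the inhibitor PI31, measured 22, 21, 22.1 and 21.5 CPM in BSA, 22.3, 21.9, 23 and 20.9 CPM in IL-1β, 24.2, 23.7, 22.3 and 20.4 CPM in palmitate and 24.1, 22, 21.7 and 22 CPM in palmitate + IL-1β. Psme3ip1, which binds PA28 gamma, measured 41.6, 40, 37.9 and 41.8 CPM in BSA, 34, 41.4, 42.8 and 39.1 CPM in IL-1β, 41.4, 43.2, 42.6 and 41.9 CPM in palmitate and 41.5, 42.6, 43.3 and 46.8 CPM in palmitate + IL-1β. All 4 conditions overlapped for each of these genes. Under other settings Psme3ip1 was called higher in palmitate + IL-1β than in IL-1β with 10 or more counts in 4 or more libraries as the filter (0.14, edgeR adjusted p = 0.0497) and without any 1 of libraries 6, 7 and 13. Psme4 was called lower in palmitate than in IL-1β with upper-quartile scaling (-0.12, adjusted p = 0.0439), and higher in IL-1β than in BSA without library 3 (0.14, adjusted p = 0.0357). The 95% confidence interval of the log2 fold change in palmitate was -0.08 to 0.11 for Psme4, -0.05 to 0.19 for Psmf1 and -0.05 to 0.19 for Psme3ip1.

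The promoters of the genes that moved most, Psme1, Psme2 and Psma6, and of the catalytic Psmb5, which was not called against BSA, are given from 250 bases before to 30 bases after a RefSeq start site. The sequences come from RefSeq for GRCm38.p6 and each was found at 1 place in GRCm39, whose positions are given. Psma6 and Psme2 have 2 start sites in RefSeq, and 1 is shown for each. Capitals mark a match to GAAANNGAA, the core of the interferon-stimulated response element (ISRE), on the other strand in Psme1, and to TGACNNNGC, the core of the antioxidant response element that Nrf1 and Nrf2 are known to bind, in Psmb5. The match begins 11 bases after the start site in Psme1 and at -47 in Psmb5.
Psme1, chr14:55815701-55815980, plus strand: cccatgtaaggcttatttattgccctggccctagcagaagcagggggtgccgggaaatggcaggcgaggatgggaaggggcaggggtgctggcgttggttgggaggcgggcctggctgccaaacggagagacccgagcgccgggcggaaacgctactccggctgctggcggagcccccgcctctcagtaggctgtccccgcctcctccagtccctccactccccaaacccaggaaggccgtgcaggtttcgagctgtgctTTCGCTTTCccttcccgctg
Psme2, chr14:55828529-55828808, minus strand: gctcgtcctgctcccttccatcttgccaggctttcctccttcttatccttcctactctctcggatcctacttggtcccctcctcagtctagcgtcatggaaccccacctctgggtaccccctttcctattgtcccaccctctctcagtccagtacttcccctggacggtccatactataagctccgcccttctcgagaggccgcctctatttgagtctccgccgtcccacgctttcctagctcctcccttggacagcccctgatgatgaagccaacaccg
Psma6, chr12:55445360-55445639, plus strand: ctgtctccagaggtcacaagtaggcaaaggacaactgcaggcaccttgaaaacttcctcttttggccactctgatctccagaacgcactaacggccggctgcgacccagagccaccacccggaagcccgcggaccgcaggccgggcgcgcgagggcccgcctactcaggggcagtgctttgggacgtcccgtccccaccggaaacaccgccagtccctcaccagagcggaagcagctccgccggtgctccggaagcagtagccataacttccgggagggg
Psmb5, chr14:54855423-54855702, minus strand: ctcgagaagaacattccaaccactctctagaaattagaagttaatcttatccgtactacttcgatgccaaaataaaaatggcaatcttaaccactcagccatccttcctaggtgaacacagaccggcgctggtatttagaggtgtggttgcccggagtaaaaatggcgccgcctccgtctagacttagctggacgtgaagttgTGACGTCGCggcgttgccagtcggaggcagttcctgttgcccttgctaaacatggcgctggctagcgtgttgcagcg
Windows of 300 bases were available for 37 of the 44 genes, and Psme2 had 2 that overlap. Both strands were searched in the 41 windows. GAAANNGAA was in 17.1% of these and in 8.56% of all 32851 windows, and TGACNNNGC in 14.6% and 12.4%. In the 28 windows of genes called higher in palmitate, the shares were 21.4% for GAAANNGAA and 7.14% for TGACNNNGC. CCAAT, the box bound by NF-Y, was in 31.7% and 37.4%, and TTCNNNGAA, the gamma-activated site, in 4.88% and 8.30%, and in the 28 windows their shares were 35.7% and 3.57%. These are matches of letters and not binding sites, and the shares were not tested.

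In the 19S particle, palmitate raised 12 of 17 subunit genes (70.6%) and lowered 0, beside 19.8% and 17.5% of all genes tested. The lid, which holds the deubiquitinase Psmd14 (Rpn11), had 7 of 8 genes called higher, with a median log2 fold change of 0.29, and Psmd13, at 0.06, was not called. The others called were Psmd12 (0.35), Psmd8 (0.32), Psmd14 (0.26), Psmd3 (0.25) and Psmd6 (0.20). The largest in the lid were Psmd7 (0.57, SE 0.10, edgeR adjusted p = 0.000284), a partner of Psmd14, and Psmd11 (0.40). The 3 base subunits without ATPase activity among the 44 genes were called higher, namely the scaffold subunits Psmd1 and Psmd2 and the ubiquitin receptor Psmd4, by 0.36, 0.17 and 0.18. Adrm1, a further ubiquitin receptor of the base whose symbol the rule does not take, was not called (0.11, edgeR adjusted p = 0.0536). Near-identical sequence in other annotated transcripts covers 96.4% of Psmd2. Of the 6 ATPases only Psmc2 (0.31) and Psmc4 (0.14) were called, which is 33.3% beside 19.8% of all genes. The parts of the particle were not tested against each other. The other ATPases were at 0.24 for Psmc5, 0.10 for Psmc6, 0.06 for Psmc1 and -0.04 for Psmc3.

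Psmd11, a lid subunit, was the only one of the 44 genes called between palmitate + IL-1β and palmitate alone. It measured 126, 126, 150 and 133 CPM in BSA, 141, 149, 156 and 160 CPM in IL-1β, 185, 169, 172 and 180 CPM in palmitate and 206, 209, 206 and 191 CPM in palmitate + IL-1β. The levels rose in that order of conditions, with only BSA and IL-1β overlapping. Palmitate + IL-1β exceeded palmitate by 0.20 (SE 0.05, edgeR adjusted p = 0.00837) and BSA by 0.61 (SE 0.05, adjusted p = 1.9e-11). IL-1β alone exceeded BSA by 0.18 (SE 0.05, adjusted p = 0.0142), a call lost with upper-quartile scaling (0.14, adjusted p = 0.0549) and without any 1 of libraries 1, 2, 7 and 8. Of the Psmd11 transcript, 44.2% is near-identical to another annotated gene. With only the libraries compared, Psme2 was called lower in palmitate + IL-1β than in palmitate (-0.15, edgeR adjusted p = 0.0378).

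Chaperones bring the subunits together and leave the finished particle. Of the 3 that assemble the 19S base, Psmd10 (gankyrin) was called higher in palmitate by 0.57 (SE 0.07, edgeR adjusted p = 6.58e-08) and Psmd5 by 0.15, and Psmd9, at 0.08, was not called. Of the 4 that assemble the 20S core, Psmg4 was called, by 0.52 (SE 0.13, adjusted p = 0.00141), from a mean of 3.19 CPM ± 0.418 (SD, n = 4) in BSA to 4.57 CPM ± 0.217 in palmitate. Psmg1 (0.14) and Psmg2 (0.15) were not called. Of all genes tested, 19.8% were called higher. Psmg3 had only 15 to 115 counts per library, and its interval of -0.15 to 0.80 on the log2 scale left a difference not detectable at this depth.

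IL-1β alone moved few of these genes. Against BSA, 5 of 44 (11.4%) were called higher and 1 (2.27%) lower, beside 10.1% and 4.97% of all genes tested, so the share was near the background. The 5 were Psme2 (0.30), Psme3 (0.19), Psmd11 (0.18), Psmd5 (0.15) and Psmd1 (0.12), and the 1 was Psmb7. The count of higher genes fell to 2 without any 1 of libraries 1, 2, 7 and 8 and to 3 without library 4, and that of lower genes was 0 without library 1 or 8, 2 without library 3 or 6 and 3 without library 2. Upper-quartile scaling gave 2 higher and 5 lower, the opposite balance, and all-gene calls then were 7.31% higher and 9.51% lower. The median log2 fold change of the 44 genes was 0.03.

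In palmitate + IL-1β against BSA, 24 genes (54.5%) were called higher and 0 lower, beside 24.8% and 22.5% of all genes tested. With upper-quartile scaling, 21 were called higher and 2 lower, beside 19.1% higher and 30.3% lower of all genes. The alpha ring had 5 of 7 genes called, the lid 7 of 8 and the beta ring 0 of 7, where the median beta log2 fold change was 0.04. The beta ring sum was 275 to 308 CPM in palmitate + IL-1β, which overlapped with the 272 to 298 CPM of BSA and lay above the 256 to 273 CPM of IL-1β.

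Against IL-1β alone, palmitate + IL-1β had 29 genes (65.9%) called higher and 0 lower, beside 18.9% and 16.1% of all genes. The lid had 8 of 8 genes called, the alpha ring 6 of 7 and the beta ring 3 of 7. Between palmitate + IL-1β and palmitate, 1 gene (2.27%) was higher and 0 lower, beside 5.71% and 4.1%, and the 1 was Psmd11. Palmitate against IL-1β gave 30 genes (68.2%) higher and 0 lower, beside 16.5% and 15.2%, with 6 of 7 beta genes among them. In the interaction 0 genes were higher and 1 (2.27%) lower, beside 0.159% and 1.83%, and the 1 was Psme2.

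The palmitate effect can be read in separate libraries, without IL-1β (libraries 1 to 4 and 9 to 12) and with it (libraries 5 to 8 and 13 to 16). Of the 44 genes, 23 were called higher in both, 5 only without IL-1β, 6 only with it and 10 in neither. The 23 are 82.1% of the 28 called without IL-1β and 79.3% of the 29 called with it. Among all genes tested, 19.8% were called higher without IL-1β and 18.9% with it. Their overlap was not counted, so the overlap of the 44 genes has no all-gene share beside it. The log2 fold changes correlated across the 44 genes with Pearson's r of 0.911 and Spearman's rho of 0.787, and across all genes tested with 0.841 and 0.727. Genes are not independent replicates, and no p is given.

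**Figure D3:**
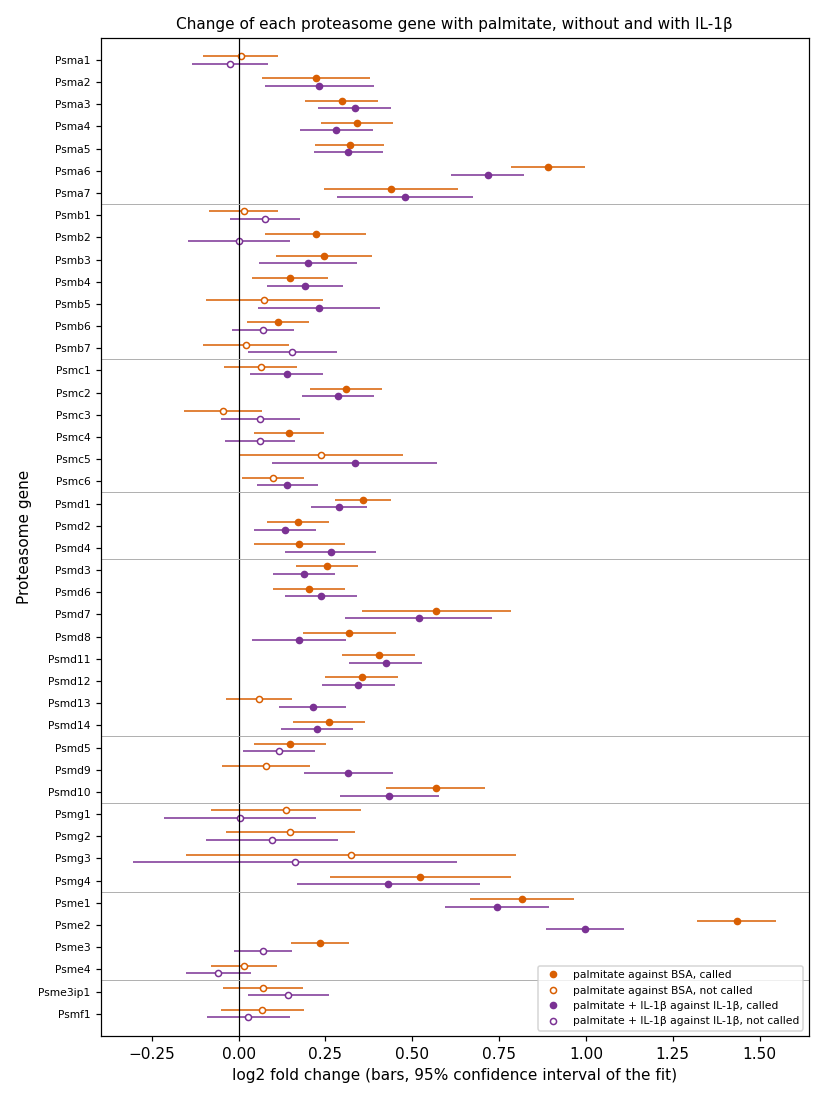
Log2 fold change of each proteasome gene with palmitate in the absence of IL-1β (against BSA, orange) and in its presence (against IL-1β, purple), with bars for the 95% confidence interval of the fit and filled points for called genes. Psme2, Psma6 and Psme1 lie farthest right in both, and most other genes fall between 0 and 0.5.

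Genes that work with the proteasome were taken from lists of partner subunits and assembly factors, transcription regulators, ubiquitin and its activating enzymes, and shuttles and the segregase p97, 43 genes in all. Against BSA, palmitate raised 22 of them (51.2%) and lowered 3 (6.98%), beside 19.8% and 17.5% of all genes. IL-1β raised 9 (20.9%) and lowered 0, beside 10.1% and 4.97%. Palmitate + IL-1β raised 26 (60.5%) and lowered 1 (2.33%), beside 24.8% and 22.5%. Against palmitate alone, palmitate + IL-1β raised 8 (18.6%) and lowered 1 (2.33%), beside 5.71% and 4.1% of all genes. By list, beside 19.8% of all genes, palmitate raised 7 of 14 partner subunits and assembly factors and 5 of 12 transcription regulators. It raised 2 of 6 ubiquitin genes and 9 of 12 shuttle and segregase genes, with Ddi2 in both of the lists it serves. Among the shuttles, Vcp, the p97 ATPase that extracts ubiquitinated proteins, rose by 0.17.

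Pomp, the chaperone that helps to join the rings into a core, measured 49.4, 48.8, 51.3 and 50.3 CPM in BSA, 44, 53.6, 54.3 and 48.6 CPM in IL-1β, 64.3, 63.1, 62.6 and 62.1 CPM in palmitate and 62, 65.3, 62 and 61 CPM in palmitate + IL-1β. The conditions with palmitate lay above those without. Its log2 fold change was 0.34 in palmitate (SE 0.05, edgeR adjusted p = 2.51e-06) and 0.33 in palmitate + IL-1β (SE 0.05, adjusted p = 2.85e-06), and 0.01 in IL-1β.

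Nfe2l1, which encodes Nrf1, measured 775, 738, 758 and 764 CPM in BSA, 842, 886, 903 and 858 CPM in IL-1β, 1036, 1057, 1042 and 1028 CPM in palmitate and 1077, 1053, 1112 and 1104 CPM in palmitate + IL-1β. BSA, IL-1β and palmitate were separate, and palmitate + IL-1β overlapped with palmitate. Its log2 fold change against BSA was 0.46 in palmitate (SE 0.04, edgeR adjusted p = 1.7e-11), 0.20 in IL-1β (SE 0.04, adjusted p = 0.000255) and 0.52 in palmitate + IL-1β (SE 0.04, adjusted p = 6.12e-13). Nrf1 is known to be controlled mainly as a protein, and protein was not measured. Ngly1, the glycanase that Nrf1 activation needs, was called lower in palmitate by -0.22 (SE 0.06, adjusted p = 0.00166), with 30.1, 33.5, 34.9 and 32.6 CPM in BSA, 31.5, 31.8, 31.5 and 31.9 CPM in IL-1β, 26.3, 27.7, 28.6 and 29.5 CPM in palmitate and 29.9, 32.3, 29.9 and 27.4 CPM in palmitate + IL-1β. Its palmitate libraries were all below BSA and IL-1β.

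Nfe2l2, which encodes the antioxidant factor Nrf2, measured 130, 127, 114 and 133 CPM in BSA, 204, 189, 183 and 167 CPM in IL-1β, 289, 309, 293 and 271 CPM in palmitate and 327, 325, 345 and 378 CPM in palmitate + IL-1β. The 4 conditions did not overlap. Its log2 fold change against BSA was 1.21 in palmitate (SE 0.06, edgeR adjusted p = 6.72e-15), 0.56 in IL-1β (SE 0.06, adjusted p = 1.47e-07) and 1.45 in palmitate + IL-1β (SE 0.06, adjusted p = 1.04e-16). Its interaction of -0.32 (adjusted p = 0.0475) was lost with upper-quartile scaling (-0.28, adjusted p = 0.154) and without any 1 of libraries 1, 2, 3, 5, 6, 7, 9, 10, 11, 13, 14 and 15.

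Bach1, a repressor at the same element, measured 89.1, 92.3, 96.2 and 92.3 CPM in BSA, 113, 116, 123 and 121 CPM in IL-1β, 109, 107, 103 and 107 CPM in palmitate and 140, 147, 143 and 140 CPM in palmitate + IL-1β. Here IL-1β lay above palmitate, and the 4 conditions did not overlap. The log2 fold change against BSA was 0.36 in IL-1β (SE 0.04, edgeR adjusted p = 8.85e-08), 0.21 in palmitate (SE 0.04, adjusted p = 0.000119) and 0.62 in palmitate + IL-1β (SE 0.04, adjusted p = 3.05e-14). Nfe2l3, a relative of Nrf1, had 1 to 22 counts per library. It measured 0.503, 0.549, 0.114 and 0.245 CPM in BSA, 0.368, 0.39, 0.443 and 0.331 CPM in IL-1β, 0.0486, 0.242, 0.0734 and 0.0822 CPM in palmitate and 0.113, 0.0331, 0.0322 and 0.111 CPM in palmitate + IL-1β. It was called lower in palmitate (-1.24, SE 0.47, adjusted p = 0.0369), where the libraries overlapped with BSA and the call was lost with no expression filter and without any 1 of libraries 1, 2, 9, 11 and 12, and in palmitate + IL-1β (-2.26, SE 0.57, adjusted p = 0.00141).

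**Figure D4:**
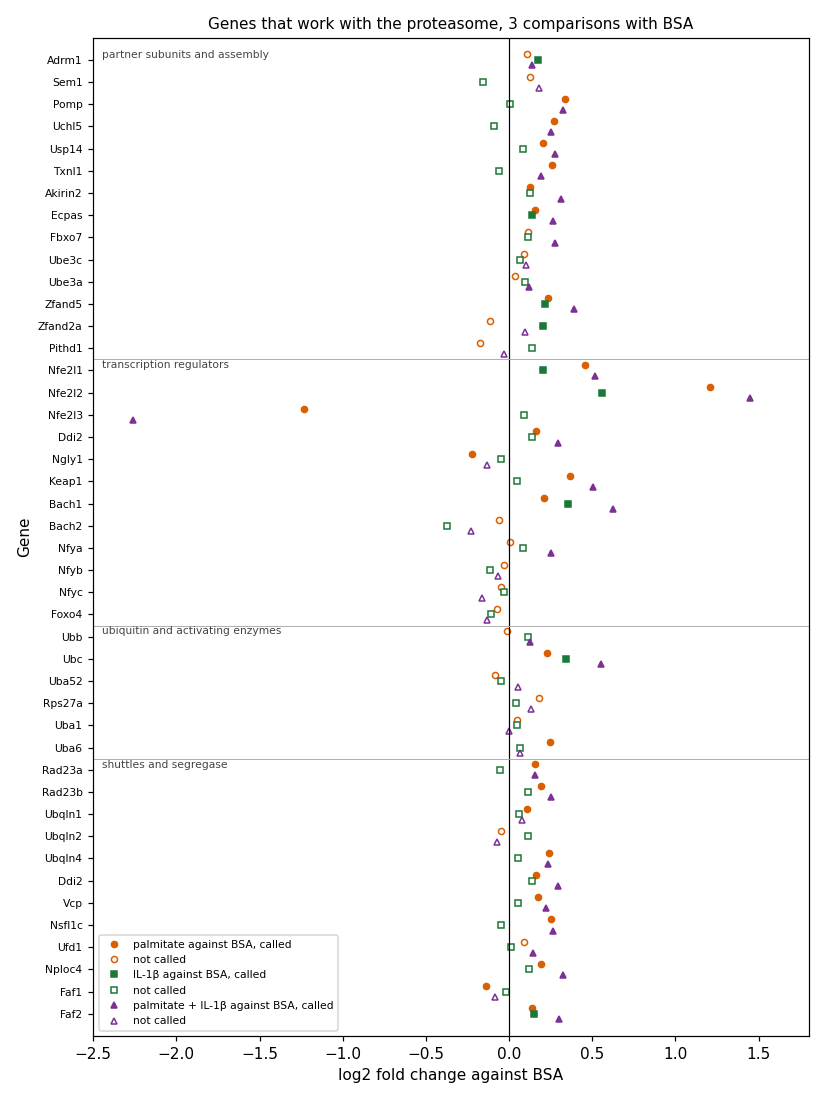
Log2 fold change against BSA of the genes that work with the proteasome, in palmitate (circles), IL-1β (squares) and palmitate + IL-1β (triangles), filled where called. Nfe2l2 lies farthest right at 1.21, 0.56 and 1.45, Nfe2l3 lies farthest left in the 2 conditions with palmitate, and most others lie within 0.5 of 0.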

How the data were processed

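Bulk RNA of 16 mGF libraries, 4 per condition, was analysed from the deposited table of raw counts per gene. Per the labels and the study's methods, the authors used Trimmomatic 0.39 to trim reads, STAR 2.7.10a to place them on GRCm39, and HTSeq 2.0.9 to count them by strand. The kit is a stranded one for total RNA in the labels and an oligo(dT) one in the methods. Rows that name no gene (18.28% to 21.42% of a library) were left out, and 3 counts, the floor used here for counting error only, correspond to 0.0331 to 0.146 CPM.

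Counts were tested with edgeR 4.0.16 (R 4.3.3): TMM, filterByExpr (minimum count 10), glmQLFit with robust estimation and glmQLFTest, in 1 fit with a mean per condition. No 2 libraries of a condition agreed within sampling noise (chi-square per degree of freedom 2.66 to 19.9). Alternatives were DESeq2 1.42.0, upper-quartile scaling, other filters, only the libraries compared, and leaving out each library.

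The members and lists were chosen with earlier results of these data known. Values in every library are given for the catalytic subunits, activators and inhibitor, for up to 3 called members with the largest log2 fold changes per direction in each comparison with BSA and in the interaction, for Pomp and Nfe2l1, and for up to 2 called partner genes per direction. Near-identical sequence means at least 95% identity over at least 100 bases. Paaf1 was not analysed here. Gene positions are from GENCODE for GRCm39.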

Additional observations from a re-analysis of the deposited data

Results flagged for a closer look

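Of 44 groups of 4 libraries examined for a library apart from the rest, 2 had one, and chance gives about 1 in 20. Psmf1, the proteasome inhibitor PI31, was at 24.08 CPM in palmitate + IL-1β library 13, above the 21.7 to 22.0 CPM of the other 3 libraries. Psma6 was at 85.237 CPM in IL-1β library 5, below the 99.2 to 102 CPM of the other 3. The palmitate effect on Psme2 differed with and without IL-1β by -0.44 on the log2 scale, by the interaction term of the edgeR fit (adjusted p = 0.000561). This 1 of the 44 genes (2.27%) called lower in the interaction is near the 1.83% of all genes tested.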

How the results depend on the processing

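Counts of called genes within 1.5 times of the main value, and medians within 0.0525 (SD between replicates, log2), were taken as kept. By this rule 92 of 102 results were kept under the other settings and 182 of 192 with 1 library left out. No called value reversed, but a median near 0 could change sign and still be taken as kept. With upper-quartile scaling the median log2 fold change of the 44 genes was 0.15 in palmitate and 0.12 in palmitate + IL-1β against BSA. That scaling also gave 2 genes higher and 5 lower in IL-1β against BSA, 2 lower in palmitate + IL-1β against BSA, and 1 lower in palmitate against IL-1β. With no expression filter, 3 genes were higher in IL-1β against BSA and 1 lower in palmitate + IL-1β against palmitate. With only the libraries compared, these counts were 3 and 2. Leaving out 1 library, the genes called higher in IL-1β against BSA ranged from 2 to 7 and those called lower from 0 to 3. The genes called higher in palmitate ranged from 21 to 27. DESeq2 moved no count by over 1.5 times. The cause of these moves was not tested.

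Of the named genes, 656 of 671 values stayed on the same side of the threshold under the other settings (8 lost their call and 7 gained it). With 1 library left out, 1226 of 1280 did (45 lost it and 9 gained it). No called value changed direction, while 54 uncalled values changed sign and stayed uncalled. Depth limits Psmg3 most among the 44 genes and Nfe2l3 among the partner genes. No paired analysis was possible because the conditions share no replicate number.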
